A study of Mus musculus with 12 samples.

Results

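The genes described here drive the copying of DNA and the division of the cell, in mouse bone marrow cultures. They came from a list of 39 cell cycle and DNA replication genes and were found by gene symbol among the array's probe sets (groups of probes for 1 transcript) that carry 1 symbol. Each gene is represented by its brightest probe set, averaged over the 12 arrays, and in this way 37 of the 39 genes were found, among 19938 genes measured likewise. Ccnb1 and Cdkn1a had no such probe set and were not analysed here. The 37 were described in 3 roles, with 13 DNA replication genes, 17 mitosis genes and 7 regulators of the G1 phase and of entry into S phase. The list holds genes of these functions, and it was chosen with earlier results of these data known.

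Bone marrow cells from the leg bones of C57B/6 mice were grown for 6 days with 20 ng/ml GM-CSF, a cytokine that expands myeloid progenitors, and yielded the dendritic cells labelled GM-DC and the macrophages labelled GM-MF. Both cell types were studied at rest and after 4 hours with lipopolysaccharide at 10 ng/ml (LPS, a component of bacterial outer membranes that signals through Toll-like receptor 4). The 4 groups were GM-DC unstimulated, GM-DC LPS, GM-MF unstimulated and GM-MF LPS, with 3 Affymetrix Mouse Gene 1.0 arrays each, and all carried the same strain and the same GM-CSF culture. How the cell types were separated, how many mice were used and whether arrays came from separate cultures is not given in the sources used here, so p-values measure only how these arrays vary, and that variation may be technical.

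Values are the log2 expression values deposited by the authors, on which a difference of 1 is a 2-fold difference, and array medians over all probe sets ran from 4.41 to 4.54. Within a group, arrays correlated at 0.993 to 0.996 over genes. The cell type labels were set against marker genes: 5 of 8 dendritic cell markers were higher and 7 of 7 macrophage markers lower in unstimulated GM-DC than in GM-MF. Flt3, a growth factor receptor of dendritic cells, had means of 8.59 in unstimulated GM-DC and 4.26 in unstimulated GM-MF, and Csf1r, the macrophage growth factor receptor, had 6.60 and 11.24. Itgax, which codes for the dendritic cell integrin CD11c, went against the label and was lower in GM-DC by 2.20. These are bulk RNA samples, so fewer cells in cycle and less RNA of a cell cycle gene per cell cannot be told apart.

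As background, a dividing cell first commits to a new round in G1, when D-type cyclins (Ccnd1, Ccnd2, Ccnd3) with their kinases release E2F transcription factors, and the inhibitor Cdkn1b (p27) holds cyclin-dependent kinases back. Replication origins are then licensed by Cdc6 and Cdt1, which load the helicase ring made of Mcm2 to Mcm7, and S phase draws on enzymes that make deoxynucleotides. Mitosis follows under Cdk1 with cyclins A and B, and its genes build the spindle, the kinetochore and the condensed chromosome. Genes of the G1 to S transition are classically bound by E2F factors, and those of G2 and mitosis by complexes that recognise the CHR (cell cycle genes homology region), a short element often found with CCAAT boxes. Macrophages and dendritic cells that arise from marrow progenitors in GM-CSF cultures generally divide less as they mature.

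The promoters of the genes show how the S phase and mitosis programmes differ in sequence, so these elements were searched in RefSeq windows of GRCm38.p6 that run from 250 bases before to 50 bases after a gene's start, 300 bases in all. The words searched on both strands, with overlaps allowed, were TTTGAA for the CHR and the word CCAAT for the CCAAT box. The E2F words were TTCCCGC, the similar TTCGCGC, and with a different core TTGGCGC and finally TTGCCGC. Windows were found for 12 replication genes (13 windows, as Mcm7 has 2), 14 mitosis genes and 4 regulators (5 windows, as Ccnd3 has 2). No window was held for Mcm4, Ccna2, Aurkb, Kif20a, Ccnd1, Ccnd2 and Ccne2. The CHR word was in 11 of 14 mitosis windows (78.6%), in 1 of 13 replication windows (7.69%) and in 0 of 5 regulator windows. It was in 17.9% of all 32851 windows and in 16% of the 21263 windows of protein-coding genes. An E2F word was in 9 of 13 replication windows (69.2%), in 4 of 14 mitosis windows (28.6%) and in 0 of 5 regulator windows, against 9.57% of all windows and 12.1% of protein-coding ones. CCAAT was in 85.7% of mitosis, 69.2% of replication and 40.0% of regulator windows, against 37.4% of all windows. A match describes letters in a window, and binding was not measured here. Median GC was 57.7% for mitosis, 57.3% for replication and 67.0% for regulator windows, against 52.7% for all.

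The 250 bases before the start are shown for 3 mitosis genes with a CHR word, in capitals, chosen because their levels are described later. They are Mki67 (chr7:135716380-135716629, minus strand), Cdk1 (chr10:69352913-69353162, minus strand) and Kif11 (chr19:37376132-37376381, plus strand, where the word lies on the other strand and reads TTCAAA), each 5′ to 3′ along the gene.
Mki67: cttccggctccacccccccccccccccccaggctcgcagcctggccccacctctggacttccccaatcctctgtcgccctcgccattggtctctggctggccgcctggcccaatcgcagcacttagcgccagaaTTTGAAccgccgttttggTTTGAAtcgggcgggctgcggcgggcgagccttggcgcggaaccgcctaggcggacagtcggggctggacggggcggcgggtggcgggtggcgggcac
Cdk1: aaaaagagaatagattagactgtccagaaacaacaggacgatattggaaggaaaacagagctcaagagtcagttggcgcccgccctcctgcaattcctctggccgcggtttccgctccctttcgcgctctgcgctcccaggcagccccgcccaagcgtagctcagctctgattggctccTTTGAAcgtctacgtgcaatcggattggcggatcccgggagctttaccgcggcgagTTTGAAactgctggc
Kif11: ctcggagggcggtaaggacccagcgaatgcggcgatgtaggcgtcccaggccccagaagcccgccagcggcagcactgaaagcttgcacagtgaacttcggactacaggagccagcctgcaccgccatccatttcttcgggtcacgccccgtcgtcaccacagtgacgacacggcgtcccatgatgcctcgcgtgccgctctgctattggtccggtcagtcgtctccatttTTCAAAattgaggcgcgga
The CHR words of Mki67 began 116 and 98 bases before the start, those of Cdk1 71 and 15 bases before it, and that of Kif11 19 bases before it. The full windows of Mki67 and Cdk1 also held 1 and 2 E2F words, which are not in capitals here.

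For comparison, the same stretch is shown for 3 replication genes with E2F words in capitals, on either strand. They are Mcm6 (chr1:128359706-128359955, minus strand), Mcm5 (chr8:75109259-75109508, plus strand) and Rrm1 (chr7:102441445-102441694, plus strand).
Mcm6: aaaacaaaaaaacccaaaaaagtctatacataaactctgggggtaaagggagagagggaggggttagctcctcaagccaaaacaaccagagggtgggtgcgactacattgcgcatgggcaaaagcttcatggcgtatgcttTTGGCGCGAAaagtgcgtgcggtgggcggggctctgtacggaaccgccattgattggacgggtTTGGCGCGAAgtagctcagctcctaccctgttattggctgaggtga
Mcm5: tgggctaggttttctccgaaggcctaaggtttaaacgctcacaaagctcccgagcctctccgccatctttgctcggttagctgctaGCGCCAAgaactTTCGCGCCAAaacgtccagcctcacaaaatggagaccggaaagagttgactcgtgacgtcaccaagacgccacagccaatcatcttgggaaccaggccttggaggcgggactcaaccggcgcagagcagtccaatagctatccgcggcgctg
Rrm1: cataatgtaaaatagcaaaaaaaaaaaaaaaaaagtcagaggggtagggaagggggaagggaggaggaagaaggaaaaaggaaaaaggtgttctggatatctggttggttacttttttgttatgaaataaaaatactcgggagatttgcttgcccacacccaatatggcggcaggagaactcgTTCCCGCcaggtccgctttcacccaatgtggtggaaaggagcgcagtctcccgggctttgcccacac
In Mcm6 and Mcm5 words of opposite strands overlap within a run of capitals, so 4 and 3 matches were counted there, while Rrm1 holds 1 word.

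Without stimulation, the replication genes and the mitosis genes differed between the cell types in opposite directions. Of 13 replication genes, 8 were higher and 2 lower in GM-DC than in GM-MF, and of 17 mitosis genes 1 was higher and 13 were lower, at an adjusted p under 0.05. Among all 19938 genes, 18% were called higher and 16.2% lower in this comparison (34.2% in either direction). The median log2 difference was 0.49 over the replication genes, -0.66 over the mitosis genes and -0.01 over all genes. Calls come from limma, fitted on all 12 arrays with Benjamini-Hochberg adjustment over all genes, and the error after ± is the standard error of that fit unless it is marked as an SD.

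**Figure D1:**
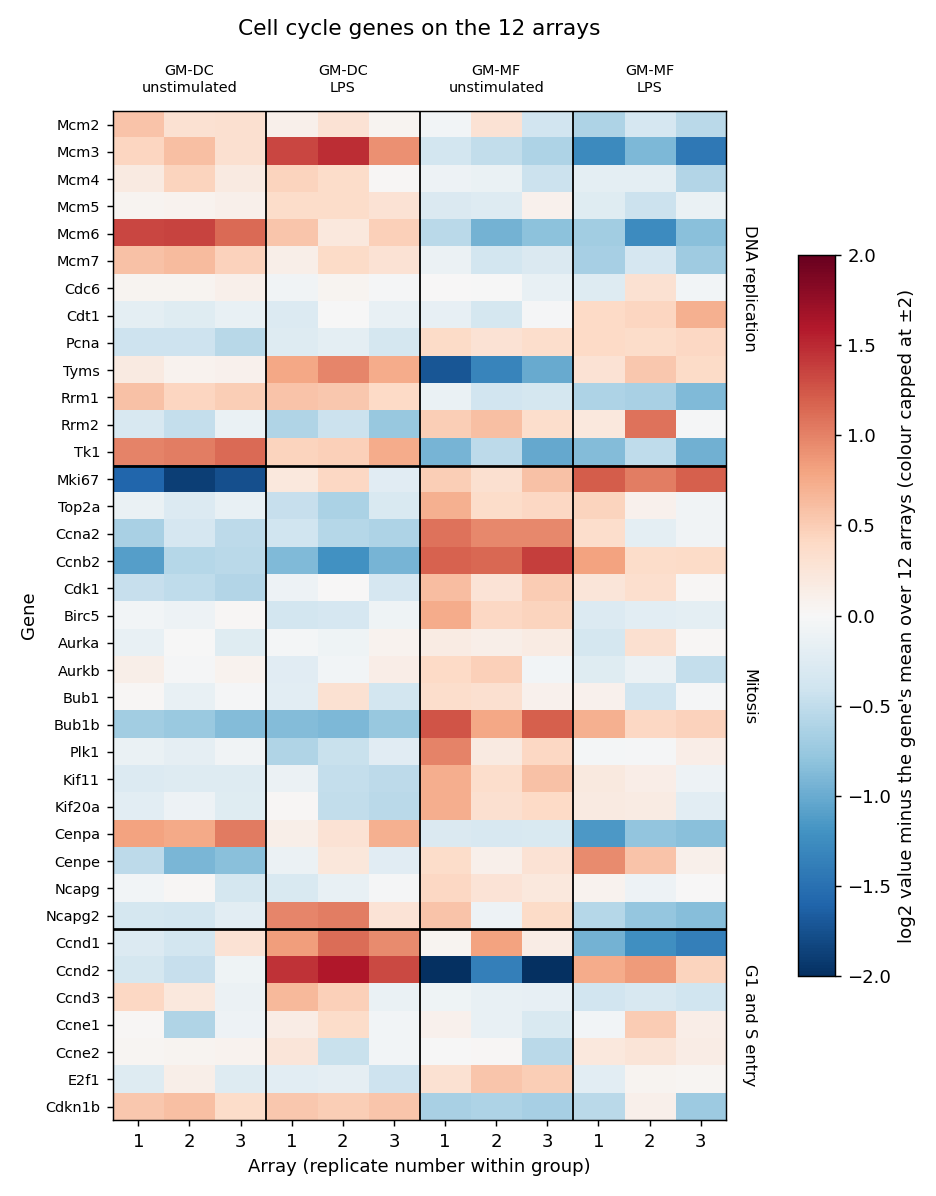
Log2 value of each of the 37 genes (rows, by role) on each of the 12 arrays (columns, by group), with the gene's own mean over the 12 arrays subtracted; red is above that mean and blue below, capped at ±2. Among the replication genes most rows are red on the GM-DC arrays, with Cdt1, Pcna and Rrm2 as exceptions, and among the mitosis genes most are red on the unstimulated GM-MF arrays, with Cenpa as an exception.

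The minichromosome maintenance genes, which code for the helicase ring that opens DNA at origins, made up most of the higher replication genes. Mcm6 read 8.41, 8.42 and 8.20 on the unstimulated GM-DC arrays and 6.52, 6.12 and 6.25 on the unstimulated GM-MF arrays, which do not overlap. It was 4.13-fold higher in GM-DC (2.05 ± 0.15, adjusted p = 3.09e-08). Mcm3 was 1.92-fold higher, at 6.42, 6.59 and 6.30 against 5.63, 5.49 and 5.38 (adjusted p = 0.000195). Mcm7 was 1.76-fold higher, at 5.75, 5.79 and 5.62 against 5.05, 4.79 and 4.87 (adjusted p = 5.75e-05). Every GM-DC array lay above every GM-MF array for both genes. Mcm4 (0.49 ± 0.15) and Mcm2 (0.45 ± 0.15) were also called, and Mcm5 was not (0.24, adjusted p = 0.135), except without GM-MF unstimulated replicate 3 (0.35, adjusted p = 0.0265). The ring is built from 1 copy of each of these proteins, but the difference in transcript was far from equal among them, from 0.24 for Mcm5 to 2.05 for Mcm6.

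The calls of Mcm2 and Mcm4 rested on single arrays. Mcm2 lost its call without GM-DC unstimulated replicate 1 (0.36, adjusted p = 0.129), GM-MF unstimulated replicate 1 (0.45, adjusted p = 0.0692) or GM-MF unstimulated replicate 3 (0.28, adjusted p = 0.174). Mcm4 lost it without GM-DC unstimulated replicate 2 (0.40, adjusted p = 0.0764) or GM-MF unstimulated replicate 3 (0.39, adjusted p = 0.0824). Of the licensing factors that load the ring, neither Cdc6 nor Cdt1 was called. Cdc6 lay between 3.81 and 4.37 on all 12 arrays, under each array's median, so its values were not shown to be above background.

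Enzymes of deoxynucleotide supply did not move as a block. Tk1, the thymidine kinase that salvages thymidine, read 9.13, 9.17 and 9.27 in unstimulated GM-DC against 7.22, 7.62 and 7.12 in unstimulated GM-MF, a 3.66-fold difference (adjusted p = 5.88e-08). A second probe set of Tk1 gave a smaller difference, 0.77 against 1.87 for the one kept. Tyms, thymidylate synthase, which makes the thymidine nucleotide de novo, read 7.36, 7.26 and 7.28 against 5.48, 5.87 and 6.17 and was 2.74-fold higher (adjusted p = 8.92e-07). The subunits of ribonucleotide reductase, which converts ribonucleotides to deoxynucleotides, went in opposite directions. Its large subunit Rrm1 was 1.73-fold higher in GM-DC (6.93, 6.77 and 6.84 against 6.21, 5.97 and 5.99, adjusted p = 2.64e-05). Its small subunit Rrm2, the one known to accumulate in S phase, was 1.73-fold lower (3.73, 3.58 and 3.91 against 4.55, 4.65 and 4.40, adjusted p = 0.00787). The GM-DC values of Rrm2 lay under the array medians, and its GM-MF values lay close to them. Pcna, the sliding clamp of DNA polymerases, was also lower in GM-DC, at 10.50, 10.49 and 10.36 against 11.29, 11.20 and 11.26 (1.74-fold, adjusted p = 3.44e-06).

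Proliferation and mitosis genes were for the most part lower in GM-DC. Mki67, the proliferation marker Ki-67, read 4.50, 4.21 and 4.34 in unstimulated GM-DC and 6.59, 6.41 and 6.68 in unstimulated GM-MF, 4.62-fold lower (-2.21 ± 0.15, adjusted p = 8.61e-09). The mitotic cyclins and their kinase followed. Ccnb2 (cyclin B2) read 4.58, 5.12 and 5.15 against 6.87, 6.83 and 7.07, 3.92-fold lower (adjusted p = 1.08e-07). Ccna2 (cyclin A2) read 3.96, 4.27 and 4.08 against 5.68, 5.56 and 5.56, 2.83-fold lower (adjusted p = 2.6e-07). Cdk1 read 5.85, 5.79 and 5.72 against 6.92, 6.58 and 6.81, 1.98-fold lower (adjusted p = 1.01e-05). For each of these genes all 3 GM-DC arrays lay below all 3 GM-MF arrays.

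Spindle, checkpoint and condensin genes were lower as well. Bub1b, the spindle checkpoint kinase BubR1, read 4.62, 4.57 and 4.45 in GM-DC against 6.57, 6.08 and 6.50 in GM-MF and was 3.57-fold lower (adjusted p = 1.79e-08). The kinetochore motor Cenpe was lower by 1.01 ± 0.18 and the spindle motor Kif11 by 0.82 ± 0.13. Top2a, the topoisomerase that untangles sister chromatids, was lower by 0.69 ± 0.14, the kinesin Kif20a by 0.66 ± 0.16, the mitotic kinase Plk1 by 0.65 ± 0.17 and Birc5 (survivin) by 0.58 ± 0.11. The condensin subunits Ncapg2 (-0.59 ± 0.19) and Ncapg (-0.43 ± 0.12) were called too, and the kinases Aurka, Aurkb and Bub1 were not (adjusted p = 0.149, 0.294 and 0.196). Without GM-MF unstimulated replicate 3 Aurkb was (-0.39, adjusted p = 0.0451). Ncapg, which lay under the array median on all 12 arrays, lost its call without GM-DC unstimulated replicate 3 (-0.31, adjusted p = 0.0597). Ncapg2 lost it without GM-DC unstimulated replicate 1 (-0.57), GM-DC unstimulated replicate 2 (-0.56), GM-MF unstimulated replicate 1 (-0.45) or GM-MF unstimulated replicate 3 (-0.54), with adjusted p up to 0.125.

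Cenpa was the exception among the mitosis genes. It codes for the histone H3 variant that marks centromeres, and it read 8.90, 8.85 and 9.13 in GM-DC and 7.82, 7.78 and 7.79 in GM-MF, 2.25-fold higher in GM-DC (adjusted p = 1.01e-05). Unlike it, 8 of the 17 mitosis genes, Mki67 and Ccna2 among them, lay under the array median on all 3 unstimulated GM-DC arrays, against 2 of 17 on the unstimulated GM-MF arrays. A fold for those genes is a ratio of signals whose lower side was not shown to be above background. When genes with a mean under the median of gene means were left out, 8 of the 17 mitosis genes were still tested and 6 were lower.

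**Figure D2:**
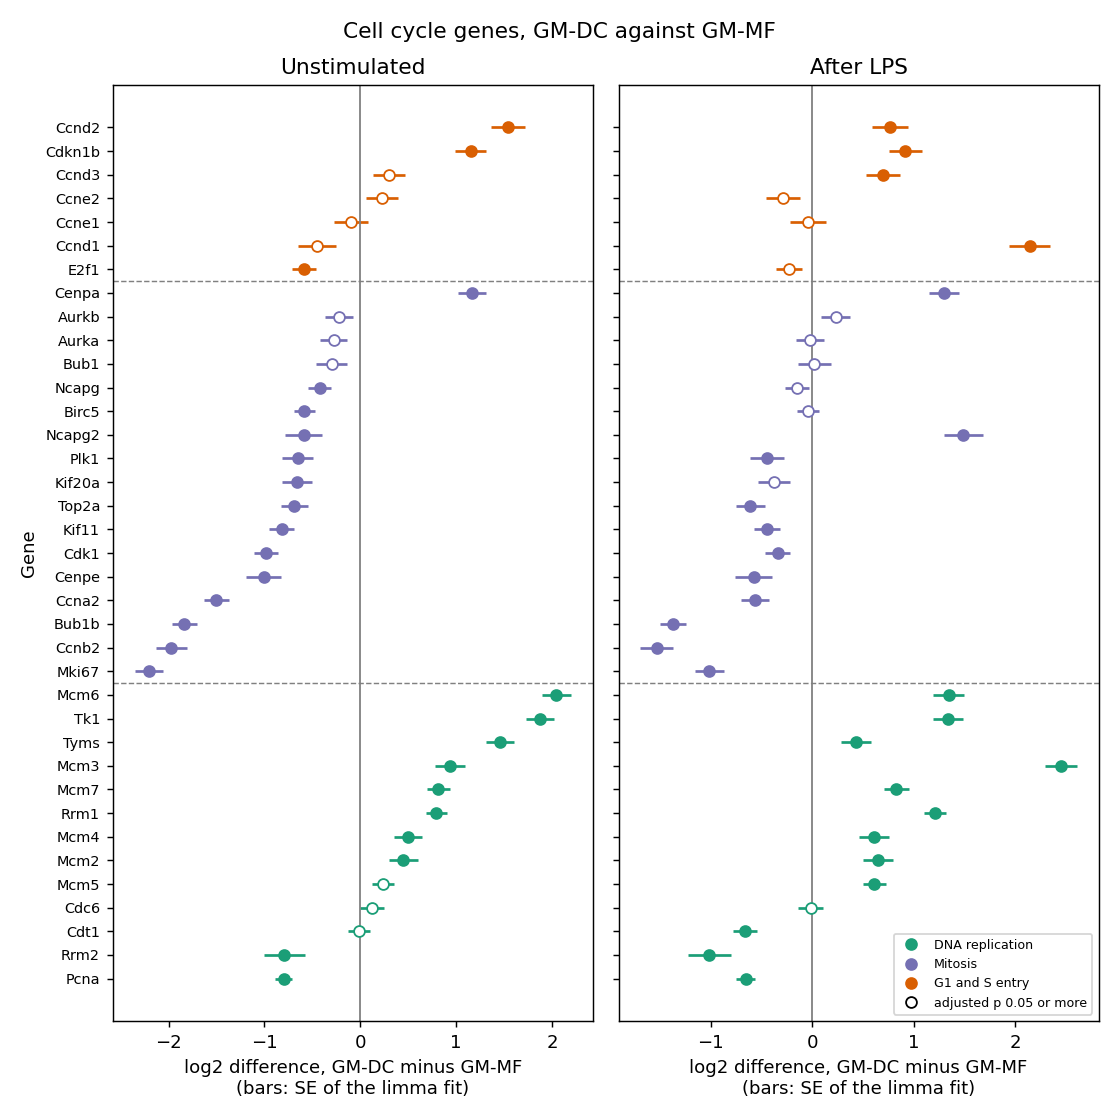
Log2 difference GM-DC minus GM-MF for the 37 genes without LPS (left) and after LPS (right), with points by role and bars for the standard error of the fit; open points have an adjusted p of 0.05 or more. Among the unstimulated arrays 8 of 13 replication genes are called to the right of 0 and 13 of 17 mitosis genes to the left of it.

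The G1 regulators were mixed. Ccnd2 (cyclin D2) read 9.72, 9.61 and 9.99 in unstimulated GM-DC and 8.03, 8.70 and 7.97 in unstimulated GM-MF and was 2.9-fold higher in GM-DC (adjusted p = 4.46e-06). Cdkn1b, the kinase inhibitor p27, was higher too, at 10.16, 10.23 and 9.99 against 8.97, 9.0 and 8.96 (2.22-fold, adjusted p = 2.91e-05). E2f1, a transcription factor of S phase genes, was lower at 4.95, 5.32 and 4.95 against 5.51, 5.76 and 5.70 (1.5-fold, adjusted p = 0.0017). A cyclin that drives G1 and an inhibitor that restrains it were therefore both higher in GM-DC, while the groups did not overlap for either. Ccnd1, Ccnd3, Ccne1 and Ccne2 were not called (adjusted p = 0.0988 for Ccnd1 at -0.46). Without GM-DC unstimulated replicate 3 or GM-MF unstimulated replicate 1 Ccnd1 was called lower, at -0.66 (adjusted p = 0.017) and -0.60 (adjusted p = 0.0477).

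Further genes of the same processes, not among the 37, were counted in the same fit, where 18% of all genes were higher and 16.2% lower. Of 44 other replication genes, 24 were higher and 3 lower in unstimulated GM-DC (1 lower without GM-DC unstimulated replicate 2), with a median difference of 0.45. Gins3 (3.11 ± 0.16) and Gins1 (-1.03 ± 0.24), subunits of the same GINS complex of the replicative helicase, stood at opposite ends. Dut, which removes dUTP, was higher by 2.21 ± 0.18, and Pold2, a subunit of DNA polymerase delta, by 1.5 ± 0.13. Of 62 other mitosis genes, 12 were higher and 23 lower, with a median of -0.27. The higher count was 7 without GM-DC unstimulated replicate 2, GM-MF unstimulated replicate 2 or GM-MF unstimulated replicate 3. Cenpn, a protein that binds the Cenpa nucleosome, was the most raised of them at 2.50 ± 0.13. Prc1 (-1.67 ± 0.14), which bundles spindle microtubules, and Foxm1 (-1.20 ± 0.22), a transcription factor of mitosis genes, were lower. Of 39 other regulators 14 were higher and 10 lower. Among them Cdk2, the S phase kinase, was higher (1.69) and Myc, a driver of growth and proliferation, was lower (-2.83 ± 0.16).

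Markers of myeloid progenitors moved with the replication genes. Of 9 such markers, 5 were higher and 0 lower in unstimulated GM-DC, among them Sox4 (4.02), Kit (3.06), the stem cell factor receptor, and Prtn3 (2.03), a granule protease. The summed level of the 9, on the linear scale, ran from 590.8 to 617.5 on the unstimulated GM-DC arrays and from 149.3 to 161.2 on the unstimulated GM-MF arrays. Cd34 and Ctsg, defining markers of early progenitors and of granule-forming ones, lay under the array median on all 12 arrays. The part of these markers in the replication or the mitosis result was not tested. Monocyte markers moved with the mitosis genes, with 4 of 4 lower in GM-DC and a summed level of 241.7 to 361.5 against 2056.0 to 2865.0, and their part was not tested either. Of 8 neutrophil markers 0 were higher, 3 lower (Mmp8, a granule collagenase, by 5.20) and 5 not called, with summed levels of 1774 to 2014 against 4714 to 5809. Mmp8 had the strongest signal of the 8 in unstimulated GM-MF, with a mean of 11.40 against 6.20, so the gap in these sums rests largely on it. Ly6g, which was called lower, Ltf and Cxcr2 lay under the array median on all 12 arrays. The part of the neutrophil markers was not tested.

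After LPS the cell types still differed in both groups of genes, with more replication genes called and fewer mitosis genes. Of 13 replication genes 9 were higher and 3 lower in GM-DC, of 17 mitosis genes 2 were higher and 9 lower, and of 7 regulators 4 were higher and 0 lower. Over all genes 20.9% were called higher and 15.4% lower (36.3% in either direction), a split of 57.6% higher among called genes that was 48.7% after cyclic loess normalization. The medians were 0.61 for replication, -0.38 for mitosis and 0.70 for the regulators, against 0.00 for all genes. The mitosis count is soft: without GM-MF LPS replicate 1 it was 5 lower genes in place of 9. A wider list of mitosis genes, given below, was not lower in the same way, with 15 genes called higher and 10 lower.

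Mcm3 showed the widest gap among the replication genes, at 7.33, 7.47 and 6.90 in GM-DC LPS against 4.71, 5.08 and 4.56 in GM-MF LPS, 5.45-fold higher (2.45 ± 0.16, adjusted p = 6.73e-09). All 6 ring subunits Mcm2 to Mcm7 were now called higher, from 0.61 for Mcm4 and Mcm5 up to Mcm3. Mcm6 read 7.62, 7.28 and 7.54 against 6.37, 5.81 and 6.23 and was 2.54-fold higher (adjusted p = 3.14e-06). Rrm1 was 2.32-fold higher (6.92, 6.88 and 6.74 against 5.73, 5.69 and 5.47), and its partner Rrm2 was 2.02-fold lower (3.44, 3.62 and 3.29 against 4.26, 5.13 and 4.02, adjusted p = 0.00122). The calls of the ribonucleotide reductase subunits were thus split in direction with and without LPS. The Rrm2 values of GM-DC LPS, and those of GM-MF LPS replicates 1 and 3, lay under the array medians. The Rrm2 side of the split thus rests on signals for the most part not shown to be above background. Cdt1, the licensing factor, read 5.18, 5.44 and 5.30 against 5.85, 5.88 and 6.17 and was 1.58-fold lower in GM-DC (adjusted p = 0.000316). Pcna was lower by 0.66 ± 0.09 and Tk1 higher by 1.34 ± 0.15. The Tyms difference shrank to 0.43 ± 0.15 (adjusted p = 0.0304), and after cyclic loess normalization it was 0.26 and not called (adjusted p = 0.196). It lost its call without GM-DC LPS replicate 1 (0.46), GM-DC LPS replicate 2 (0.36), GM-MF LPS replicate 1 (0.37) or GM-MF LPS replicate 3 (0.42), with adjusted p up to 0.118.

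Among the mitosis genes after LPS, Ccnb2 (2.89-fold), Bub1b (2.59-fold) and Mki67 (2.02-fold) lay furthest below GM-MF. Ccnb2 read 4.80, 4.47 and 4.76 against 6.50, 6.06 and 6.07 (adjusted p = 1.74e-06). Bub1b read 4.44, 4.41 and 4.55 against 6.02, 5.73 and 5.77 (adjusted p = 4.56e-07). Mki67 read 6.31, 6.50 and 5.87 against 7.31, 7.12 and 7.29 (adjusted p = 4.18e-05). None of these groups overlapped, but the Mki67 values of GM-DC LPS lay well above those of unstimulated GM-DC. The remaining lower genes, Top2a, Cenpe, Ccna2, Plk1, Kif11 and Cdk1, differed by 0.34 to 0.61. For Plk1 (up to 4.30) and Kif11 (up to 3.99) the LPS arrays of both cell types lay under the array medians. Neither side of these 2 differences was thus shown to be above background. Cenpa (8.21, 8.38 and 8.80 against 6.94, 7.31 and 7.26, adjusted p = 3.15e-06) and Ncapg2 (5.99, 6.03 and 5.28 against 4.44, 4.24 and 4.17, adjusted p = 1.45e-05) were higher in GM-DC.

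Several of the smaller mitosis calls after LPS depended on 1 array. Cdk1 lost its call when any of 7 of the 12 arrays was left out (adjusted p up to 0.175, at -0.24 without GM-DC LPS replicate 3), and Plk1 when any of 9 was (up to 0.176, at -0.36 without GM-DC LPS replicate 1). Cenpe, whose groups overlapped, lost it without GM-DC LPS replicate 1 (-0.54), GM-DC LPS replicate 3 (-0.49), GM-MF LPS replicate 1 (-0.38) or GM-MF LPS replicate 2 (-0.56). Kif11 lost it without GM-DC LPS replicate 2 (-0.39), GM-DC LPS replicate 3 (-0.37) or GM-MF LPS replicate 1 (-0.39). Scaling ended calls too. After quantile normalization Plk1 (adjusted p = 0.0623) and Kif11 (adjusted p = 0.0525) were not called, nor was Plk1 after cyclic loess (adjusted p = 0.067).

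All 3 D-type cyclins were higher in GM-DC after LPS. Ccnd1 read 8.73, 9.01 and 8.84 in GM-DC LPS against 6.95, 6.68 and 6.53 in GM-MF LPS, 4.41-fold higher (2.14 ± 0.20, adjusted p = 4.25e-07). Ccnd2 was 1.7-fold higher (11.52, 11.67 and 11.39 against 10.82, 10.93 and 10.52, adjusted p = 0.00269) and Ccnd3 1.62-fold higher (7.32, 7.15 and 6.54 against 6.29, 6.36 and 6.27, adjusted p = 0.00407). Cdkn1b, at 10.15, 10.11 and 10.18 against 9.08, 9.71 and 8.90, was 1.89-fold higher (adjusted p = 0.000245). None of these groups overlapped. Beyond the 37 genes, 28 of 44 other replication genes were higher and 2 lower (1 to 2 when 1 array was left out). Of 62 other mitosis genes 15 were higher and 10 lower (median -0.08), against 20.9% and 15.4% of all genes. This wider mitosis list thus had more genes called higher than lower in GM-DC, unlike the mitosis genes among the 37. Its higher count was 7 when genes with a mean under the median of gene means were left out. Of the 9 progenitor markers 4 were higher, with summed levels of 353.4 to 427.9 in GM-DC LPS and 168.1 to 188.5 in GM-MF LPS. Monocyte (4 of 4) and neutrophil markers (6 of 8, Mmp8 by 6.25) were lower in GM-DC, and the part of these lists was not tested. Of the lower neutrophil markers, Ly6g and Ltf lay under the array median on all 12 arrays.

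**Figure D3:**
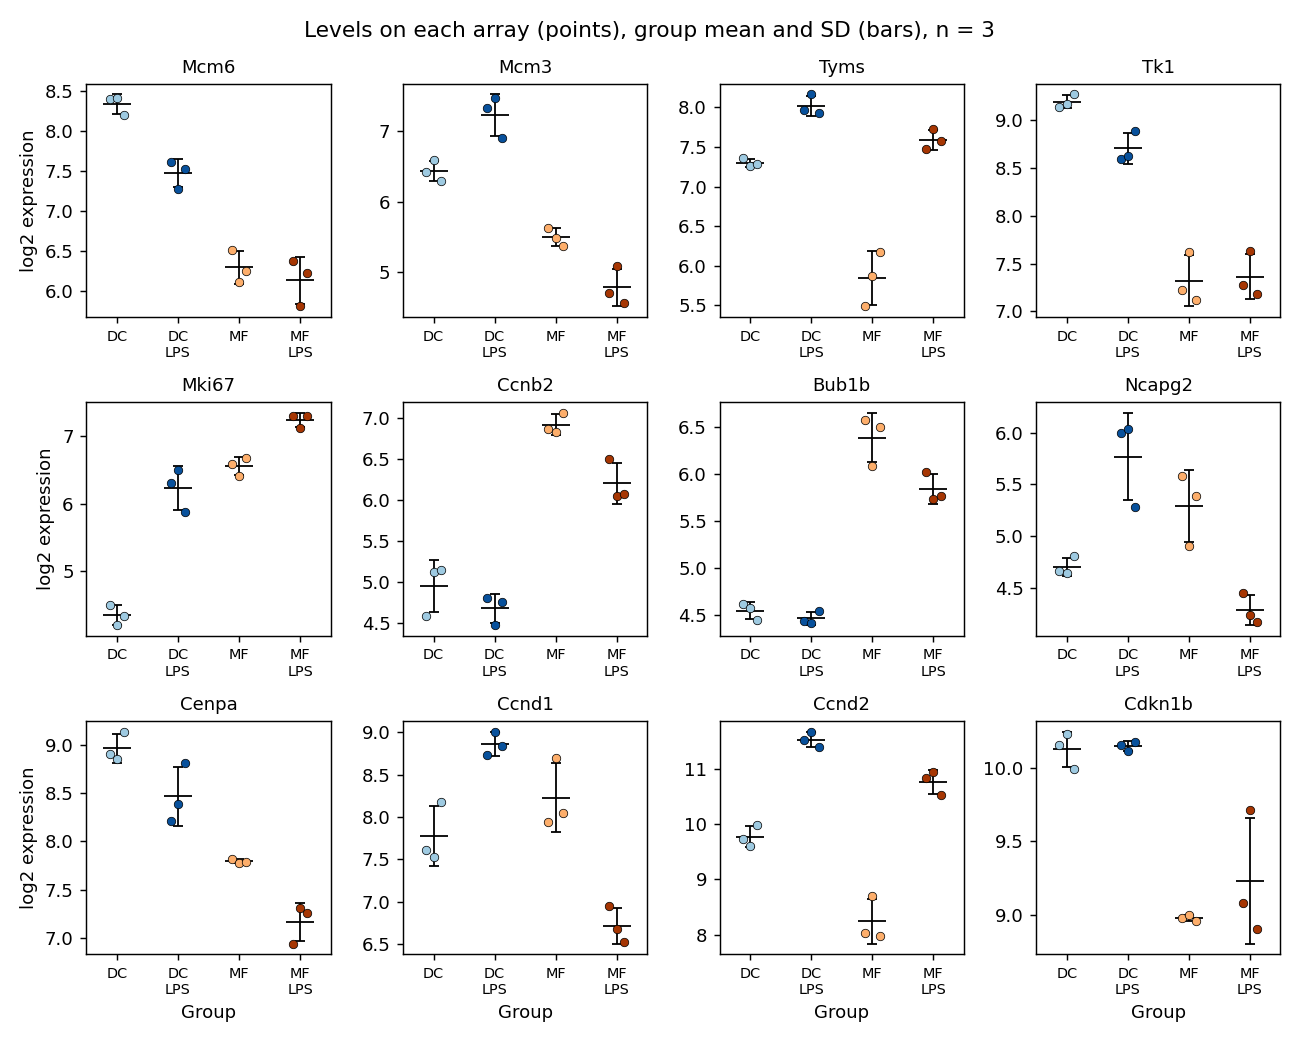
Log2 expression of 12 of the genes on each array (points) with group mean and SD (bars, n = 3) in GM-DC and GM-MF, unstimulated and after LPS; each panel has its own axis, which does not start at 0. Mcm6 and Tk1 are highest in unstimulated GM-DC, Ccnb2 and Bub1b in unstimulated GM-MF, and Ccnd2 rises with LPS in both cell types.

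In GM-DC 7 of 37 genes rose with 4 hours of LPS, 3 fell and 27 were not called. Over all genes 5.23% were called higher and 4.49% lower (9.72% in either direction). The 3 that fell include Cenpa and Tk1, whose calls were lost when single arrays were left out, as given below. Mki67 rose most, from 4.50, 4.21 and 4.34 without LPS to 6.31, 6.50 and 5.87 with it, 3.68-fold (1.88 ± 0.15, adjusted p = 6.41e-07). The other mitosis genes that rose were the condensin subunit Ncapg2 (4.66, 4.64 and 4.80 to 5.99, 6.03 and 5.28, 2.1-fold, adjusted p = 0.00194) and the motor Cenpe (1.65-fold, adjusted p = 0.0209). The median over the 17 mitosis genes was -0.08, so the rise of Mki67 was not shared by most of them. The unstimulated GM-DC values of Mki67, and all GM-DC values of Cenpe, lay under the array medians, so these folds are ratios to a signal not shown to be above background. Cdk1, at 0.38, was not called (adjusted p = 0.0723), but it was without GM-DC LPS replicate 3 (0.48, adjusted p = 0.0293) and after quantile (0.39, adjusted p = 0.0242) or cyclic loess normalization (0.42, adjusted p = 0.024).

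Replication genes of GM-DC went both ways under LPS, with 2 up, 2 down and 9 not called. Mcm3 rose 1.74-fold, from 6.42, 6.59 and 6.30 to 7.33, 7.47 and 6.90 (adjusted p = 0.00386), and Mcm6, its partner in the helicase ring, fell 1.82-fold, from 8.41, 8.42 and 8.20 to 7.62, 7.28 and 7.54 (adjusted p = 0.00148). The groups did not overlap for either subunit. Tyms rose 1.65-fold, from 7.36, 7.26 and 7.28 to 7.97, 8.17 and 7.93 (adjusted p = 0.00422). Tk1 fell by 0.49 ± 0.15 (adjusted p = 0.0488), and with the mean of its probe sets it was not called (-0.30, adjusted p = 0.161). The cyclins Ccnd2 (9.72, 9.61 and 9.99 to 11.52, 11.67 and 11.39, 3.37-fold, adjusted p = 1.08e-05) and Ccnd1 (7.62, 7.52 and 8.18 to 8.73, 9.01 and 8.84, 2.12-fold, adjusted p = 0.00222) rose. Cdkn1b read 10.16, 10.23 and 9.99 without and 10.15, 10.11 and 10.18 with LPS, groups that overlap.

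The weaker responses of GM-DC depended on single arrays. Cenpa, which fell by 0.50 ± 0.15 (adjusted p = 0.0443), lost its call when any of 10 of the 12 arrays was left out (up to 0.202, at -0.37 without GM-DC LPS replicate 1). Tk1 lost it with any of 7 arrays left out (up to 0.167, at -0.44 without GM-DC LPS replicate 1). After cyclic loess normalization neither Cenpa nor Tk1 was called (adjusted p = 0.075 and 0.0751). Cenpe lost its call without GM-DC unstimulated replicate 2 (0.64), GM-DC unstimulated replicate 3 (0.68) or GM-DC LPS replicate 2 (0.59). For the wider lists, the shares over all genes were 5.23% up and 4.49% down. Of 44 other replication genes 2 rose and 1 fell, and of 62 other mitosis genes 5 rose and 3 fell, which is near those shares. These small counts ranged from 1 to 3, 0 to 2, 4 to 5 and 0 to 5 when 1 array was left out. Fen1, the flap endonuclease of lagging strand synthesis (1.10), and Mybl2 (1.22), the B-Myb transcription factor of mitosis genes, were among those that rose. Kit (-1.20) and Sox4 (-1.01) of the 9 progenitor markers fell, of 7 macrophage markers 3 rose and 1 fell (Csf1r by 1.62), and 0 of 8 dendritic cell markers were called. Their part was not tested.

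In GM-MF, mitosis genes were lower with LPS: 9 of 17 fell and 1 rose, with a median of -0.48, while of 13 replication genes 2 rose and 2 fell. Over all genes 6.54% were called higher and 10.8% lower (17.4% in either direction). This balance depended on the scaling, since 37.7% of all called genes were higher with the values as deposited and 52.4% after cyclic loess normalization. Under that scaling and the other scalings no called cell cycle gene changed direction, but some lost their call. Plk1 was not called after quantile (adjusted p = 0.0703) or cyclic loess normalization (0.083), or with array medians centred (0.0895). Kif11 was not called after cyclic loess (0.0537) or with medians centred (0.063). Rrm1 was not called after quantile (0.056) or cyclic loess normalization (0.0544), and E2f1 after quantile normalization (0.0537). Ccna2 fell 1.96-fold, from 5.68, 5.56 and 5.56 to 4.95, 4.42 and 4.54 (adjusted p = 0.000114). Ncapg2 fell 2.01-fold, from 5.58, 4.90 and 5.39 to 4.44, 4.24 and 4.17 (adjusted p = 0.00166). Birc5 fell 1.69-fold, from 6.19, 5.87 and 5.90 to 5.18, 5.25 and 5.25 (adjusted p = 0.00019). Ccnb2 fell 1.64-fold (6.87, 6.83 and 7.07 to 6.50, 6.06 and 6.07, adjusted p = 0.00594). For each of these genes the 3 LPS arrays lay below the 3 unstimulated ones. Bub1b, Cenpa, Aurkb, Plk1 and Kif11 fell by 0.48 to 0.63.

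Mki67 was the 1 mitosis gene called higher with LPS in GM-MF and rose 1.6-fold, from 6.59, 6.41 and 6.68 to 7.31, 7.12 and 7.29 (adjusted p = 0.00378). With the replicate number as a block within each cell type, which pairs each LPS array with the unstimulated array of its number, Top2a (-0.35, adjusted p = 0.0245) and Kif20a (-0.44, adjusted p = 0.0489) were called as well. Leaving out 1 array left between 6 and 10 mitosis genes lower. Plk1 lost its call when any of 9 of the 12 arrays was left out (up to 0.211, at -0.28 without GM-MF unstimulated replicate 1). Aurkb lost it without GM-MF unstimulated replicate 1, GM-MF unstimulated replicate 2 or GM-MF LPS replicate 3 (up to 0.0812, at -0.45). Kif11 lost it without GM-MF unstimulated replicate 1, GM-MF unstimulated replicate 3 or GM-MF LPS replicate 3 (up to 0.0962, at -0.39).

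Tyms had the largest replication response, from 5.48, 5.87 and 6.17 in unstimulated GM-MF to 7.48, 7.72 and 7.58 with LPS, a 3.36-fold rise (1.75 ± 0.15, adjusted p = 9.49e-07). Cdt1, which loads the helicase with Cdc6, rose 1.62-fold, from 5.29, 5.10 and 5.43 to 5.85, 5.88 and 6.17 (adjusted p = 0.000643). Mcm3 fell 1.64-fold, from 5.63, 5.49 and 5.38 to 4.71, 5.08 and 4.56 (adjusted p = 0.00488). Enzymes and licensing factors of S phase thus rose and fell side by side, and the median over the 13 genes was -0.10. Rrm1 fell by 0.43 ± 0.11 (adjusted p = 0.0122), and not past the threshold without GM-MF unstimulated replicate 1 or GM-MF LPS replicate 3 (-0.35, adjusted p = 0.0681). Mcm2 read 5.39, 5.73 and 5.05 without and 4.82, 5.09 and 4.89 with LPS and was not called (-0.45, adjusted p = 0.053), but it was with the block within each cell type (adjusted p = 0.0267). The same held without GM-MF unstimulated replicate 3 (-0.62) or GM-MF LPS replicate 2 (-0.53). Without GM-MF LPS replicate 2, 4 replication genes were lower in place of 2, and without GM-MF unstimulated replicate 1 or GM-MF LPS replicate 3 there was 1.

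The D-type cyclins of GM-MF parted under LPS. Ccnd2 rose 5.74-fold, from 8.03, 8.70 and 7.97 to 10.82, 10.93 and 10.52 (2.52 ± 0.18, adjusted p = 1.91e-07), the widest response of the 37 genes in GM-MF. Ccnd1 fell 2.85-fold, from 7.95, 8.70 and 8.05 to 6.95, 6.68 and 6.53 (adjusted p = 7.81e-05). E2f1 fell by 0.49 ± 0.13 (adjusted p = 0.0139) and lost its call without GM-MF unstimulated replicate 2, GM-MF unstimulated replicate 3 or GM-MF LPS replicate 1 (up to 0.0684, at -0.40). Among the wider lists, 9 of 44 other replication genes fell and 2 rose (1 to 2 rose when 1 array was left out), led downward by Dnmt1 (-1.18), the maintenance DNA methyltransferase, and Rpa3 (-1.05), of the single-strand binding protein. Of 62 other mitosis genes 14 fell and 5 rose, where 10.8% of all genes fell and 6.54% rose. The count of these mitosis genes that fell was 4, 6 and 8 without GM-MF unstimulated replicate 1, GM-MF LPS replicate 2 and GM-MF LPS replicate 3. It was 8 with array medians centred. Myc fell by 1.89 and the repressor E2f6 by 1.06, while E2f5 rose by 2.45 and Wee1, the kinase that holds Cdk1 inactive, by 1.22. Markers of other cells moved in GM-MF too. Of 8 dendritic cell markers 3 rose (Ccr7 by 2.47, Fscn1 by 1.82 and Zbtb46 by 0.40) and 0 fell. Of 7 macrophage markers 2 rose and 1 fell (Csf1r by 0.93), of 4 monocyte markers Vcan rose by 1.72 and Ccr2 fell by 2.06, and of 9 progenitor markers Kit rose by 0.99. Their part was not tested.

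**Figure D4:**
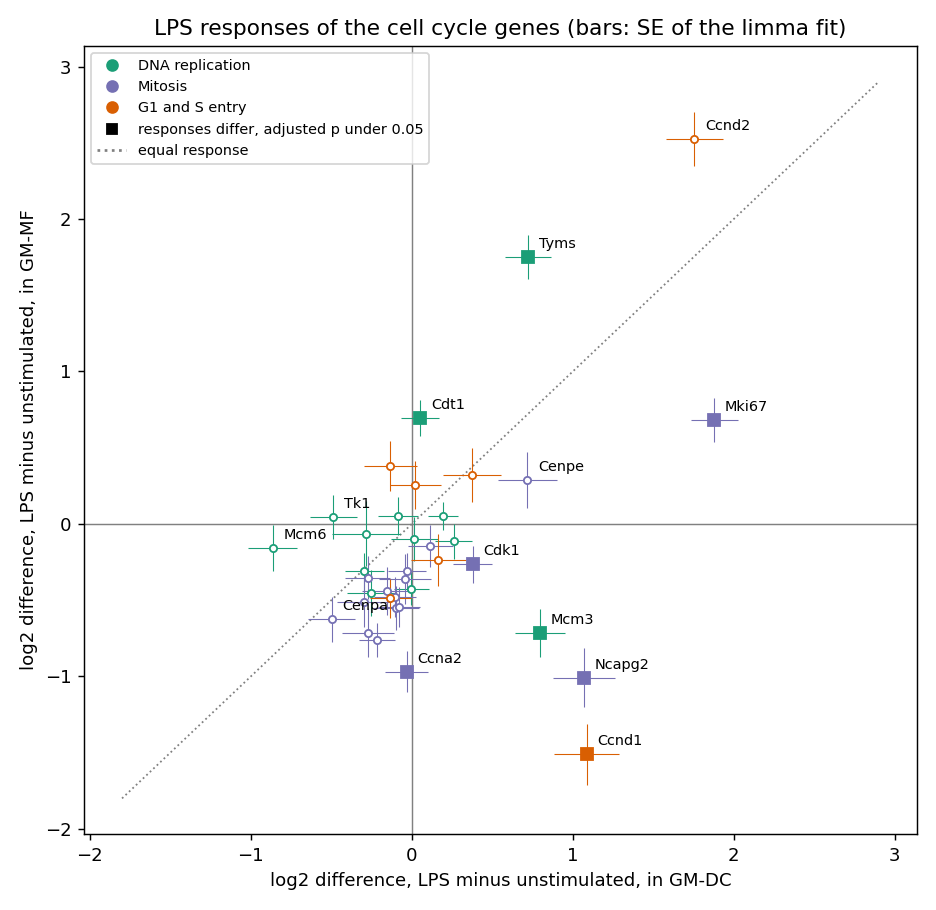
Log2 difference LPS minus unstimulated in GM-DC (x axis) against the same in GM-MF (y axis) for the 37 genes, with bars for the standard error of the fit and filled squares for genes whose responses differ at an adjusted p under 0.05. Mcm3, Ncapg2 and Ccnd1 lie in the lower right quadrant, up in GM-DC and down in GM-MF, and Ccnd2, Tyms and Mki67 are up in both.

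The difference between these responses was tested directly, as the interaction of cell type and LPS. It was called for 8 of the 37 genes, 6 with a higher response in GM-DC and 2 with a lower one, against 4.53% of all genes called higher and 3.06% lower (7.59% in either direction). Of the called genes 59.7% were higher, and 50.8% after cyclic loess normalization. All 4 mitosis genes called were on the higher side, and over the 17 mitosis genes the median was 0.43, against 0.02 over the 13 replication genes and 0.02 over all genes. On all arrays of unstimulated GM-DC 8 of the 17 mitosis genes lay under the array median, and 8 did in GM-DC LPS. A fall with LPS in GM-DC could go unseen at such levels, and its part in this median was not tested. For 3 genes the response was called in each cell type with opposite sign. Ccnd1 rose by 1.09 in GM-DC and fell by 1.51 in GM-MF, a difference of 2.60 (95% interval 1.99 to 3.20, adjusted p = 3.48e-05). Ncapg2 rose by 1.07 and fell by 1.01, a difference of 2.08 (1.49 to 2.66, adjusted p = 0.000187). Mcm3 rose by 0.80 and fell by 0.71, a difference of 1.51 (1.03 to 1.99, adjusted p = 0.000528). A cyclin of G1, a condensin subunit and a helicase subunit thus had opposite responses, each from a different step of the cycle.

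Mki67 rose in both cell types, more in GM-DC (difference 1.20, 0.76 to 1.64, adjusted p = 0.0018), and Tyms rose in both, more in GM-MF (-1.03, -1.47 to -0.59, adjusted p = 0.00522). Ccna2 fell in GM-MF, and its response differed by 0.94 (0.53 to 1.34, adjusted p = 0.00559). In GM-DC its means were 4.10 without and 4.07 with LPS, under the array medians, so a fall there could go unseen. Cdt1 (-0.64, adjusted p = 0.0268) and Cdk1 (0.64, adjusted p = 0.0342) were called by less margin. Cdt1 lost its call when any of 6 of the 12 arrays was left out (up to 0.0769, at -0.58 without GM-DC LPS replicate 1) and Cdk1 when any of 9 was (up to 0.0934, at 0.55 without GM-MF LPS replicate 3). Mcm6 (-0.70, adjusted p = 0.0617), Birc5 (0.54, adjusted p = 0.0504) and Ccnd2 (-0.77, adjusted p = 0.0862) were not called. With the replicate number as a block within each cell type they were (adjusted p = 0.0201, 0.0491 and 0.0398), as was Tk1 (-0.53, adjusted p = 0.0231), which made 12 genes in place of 8. The probe sets of Tk1 disagreed on the direction of this difference. The one kept changed by -0.489 in GM-DC and 0.045 in GM-MF with LPS, and the second by -0.111 and -0.403. Mcm6 was also called without GM-MF unstimulated replicate 1 (-0.82) or GM-MF LPS replicate 2 (-0.87), and Birc5 (0.60) and Ccnd2 (-1.0) without GM-MF unstimulated replicate 2.

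Averaged over genes on the log2 scale, the roles had the following levels, given as a description. The 13 replication genes had a mean of 6.51 ± 0.02 (SD, n = 3) in unstimulated GM-DC, 6.49 ± 0.07 in GM-DC LPS, 5.92 ± 0.03 in unstimulated GM-MF and 5.94 ± 0.11 in GM-MF LPS. The 17 mitosis genes had 4.69 ± 0.01, 4.81 ± 0.03, 5.49 ± 0.13 and 5.07 ± 0.09 in the same order. These means hide members that go both ways, and they depend on the scale. Summed on the linear scale, where the strongest signals weigh most, the replication genes were not higher in GM-DC. Pcna had the strongest signal of the 13 in every group and was lower in GM-DC. Its means were 10.45 in unstimulated GM-DC and 11.25 in unstimulated GM-MF. The sums thus rest largely on Pcna and do not describe the other replication genes, and a sum without it was not taken. The sums ran from 2849 to 3009 and from 2889 to 3104 on the GM-DC arrays without and with LPS, and from 3014 to 3151 and from 3242 to 3285 on those of GM-MF. The mitosis sums ran from 852.1 to 949.0 and from 782.3 to 888.4 in GM-DC, and from 951.5 to 1103 and from 775.2 to 830.5 in GM-MF. Cenpa, which was higher in GM-DC, had the strongest signal of the 17 in every group except GM-MF LPS. Its means without and with LPS were 8.96 and 8.46 in GM-DC, and 7.79 and 7.17 in GM-MF. The mitosis sums thus rest in good part on Cenpa and do not describe the other mitosis genes. A mitosis sum without it was not taken. The 7 regulators had 7.10, 7.55, 6.81 and 6.99. Of all 37 genes, 10 lay under the array median on every array of each GM-DC group, against 3 and 5 in GM-MF without and with LPS, and Cdc6, Bub1 and Ncapg did so on all 12 arrays.

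The calls could be read against the promoter words shown earlier. Of the 14 genes lower in unstimulated GM-DC that had a window, 9 held the CHR word, and of the 9 higher genes with a window 2 did. An E2F word was in 4 of those 9 higher genes and in 5 of the 14 lower ones. The words did not sort the calls gene by gene. Mki67 and Cdk1, which hold the CHR word and also 1 and 2 E2F words, were lower in unstimulated GM-DC, as was Kif11, which holds a CHR word and no E2F word. Mcm6 and Rrm1, which hold E2F words, were higher, and so was Cenpa, which holds a CHR word. Tk1 and Tyms, both higher, held no E2F word in this window, and Mcm5, with 3, was not called. The roles and the words go together in these genes, so the calls were not tested against the words.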

How the data were processed

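RNA of 12 samples was measured on Affymetrix Mouse Gene 1.0 arrays. The values were log2 expression per probe set, deposited by the authors and, per the submitters' processing notes, produced by RMA under R 3.0.2. RMA settings and the base of the logarithm are not stated, and base 2 was taken from the table's range, 1.18 to 13.66. RMA is known to compress differences at low signal. No scanner files were used, so no background call was made. Of 35556 probe sets, 21789 had 1 gene symbol, 1621 several and 12146 none, and none was named from the last 2 kinds. Where several probe sets shared a symbol (999 genes), the brightest on average represented the gene, leaving 19938 genes.

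Groups were compared with limma 3.58.1 in R 4.3.3 (lmFit with 4 group means, contrasts.fit, eBayes without trend, 8 residual degrees of freedom), in 5 two-sided comparisons, each with Benjamini-Hochberg adjustment and a threshold of 0.05. The fit was also tested on simulated data of 19938 genes, with 100 genes changed 2-fold and 100 changed 4-fold in GM-DC LPS. It recovered 92% of the 2-fold and 100% of the 4-fold changes, with 6 false calls. The simulated noise was independent between genes and arrays, unlike that of real arrays. Recovery of differences under 2-fold, or of values near background, was not tested. With 3 arrays per group, the number of arrays limits the precision.

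The cell cycle genes, the wider lists, the markers and the promoter words were chosen with earlier results of these data known. Named from each wider list were up to 3 called genes with the largest difference in each direction. The labels repeat replicate numbers 1 to 3 in every group. After centring on group means, same-numbered arrays of a cell type with and without LPS correlated at 0.119 to 0.363 (GM-DC) and 0.104 to 0.257 (GM-MF). Differently numbered arrays correlated at -0.25 to 0.164 (GM-DC) and -0.216 to 0.0254 (GM-MF). These ranges overlap in GM-DC, so pairing by number is not settled there, and the block within each cell type assumes it. Same-numbered arrays of GM-DC and GM-MF did not all correlate (-0.168 to 0.0117 without LPS). Alternatives changed the scaling, the probe set rule, the filter on low values, the arrays fitted, the eBayes settings and the block, and left out each array in turn. The block within each cell type was added after seeing the data.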

Additional observations from a re-analysis of the deposited data

Results flagged for a closer look

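For 8 of the 37 genes the response to LPS differed between GM-DC and GM-MF by the interaction test of the limma fit, at an adjusted p under 0.05. The values are the log2 response of GM-DC minus that of GM-MF. Among the replication genes they were 1.51 for Mcm3, -0.64 for Cdt1 and -1.03 for Tyms. Among the mitosis genes they were 1.20 for Mki67, 0.94 for Ccna2, 0.64 for Cdk1 and 2.08 for Ncapg2. The cyclin Ccnd1 had the widest difference, 2.60. Single outlying arrays within the groups of 3 were not tested for.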

How the results depend on the processing

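The number of cell cycle genes called stayed within 1.5 times its value in all 5 comparisons under every alternative run. It ranged from 19 to 27 for GM-DC against GM-MF unstimulated, 21 to 27 with LPS, 7 to 11 for LPS in GM-DC, 13 to 20 for LPS in GM-MF and 6 to 12 for the interaction. When 1 array was left out the ranges were 25 to 27, 22 to 27, 7 to 11, 13 to 18 and 6 to 11. Of 89 called gene results, with 1863 values under the alternatives, 19 lost their call under at least 1 and 0 changed direction. Of 96 results not called, 17 were called under at least 1 alternative. Filters on low values removed mitosis genes most, keeping 8 of 17 by the mean and 11 of 17 by 3 arrays above the median. The mitosis genes lower in unstimulated GM-DC then numbered 6 and 8 in place of 13, since fewer were tested. With the filter on means, those lower after LPS numbered 4 in place of 9, and those lowered by LPS in GM-MF 5 in place of 9. With the replicate number as a block over all arrays 27, 27, 10, 19 and 9 genes were called in the order above, against 27, 27, 10, 17 and 8 without the block. Plk1 then lost its call with LPS (adjusted p = 0.0505) and Kif20a gained one (adjusted p = 0.0361). It also called Mcm2 and Kif20a for LPS in GM-MF and Mcm6 in the interaction (adjusted p = 0.0317, 0.0315 and 0.0228). The block within each cell type gave 10, 20 and 12 for the last 3 comparisons and changed no call other than those given with the results. The cause of the other changes was not tested. Of the mitosis genes 8 of 17 lay under the median on every array of each GM-DC group, so their values there were not shown to be above background.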

Other observations

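Genes of the p53 pathway, which halts the cycle after damage, were a further list read in the same fit. Trp53 and Bax were on the list but were not measured. Of 22 such genes 11 were higher and 5 lower in unstimulated GM-DC than in GM-MF, against 18% and 16.2% of all genes. Sesn2, a stress-induced regulator of metabolism, was higher by 3.07 and Gadd45b by 1.55, while Gadd45g was lower (-1.07). The polo-like kinases Plk3 and Plk2, relatives of the mitotic Plk1 with roles outside mitosis, were lower by 2.72 and 2.14, while Plk1 itself was lower by 0.65. After LPS, 10 of the 22 were higher and 5 lower in GM-DC, against 20.9% and 15.4% of all genes. Sesn2 was then higher by 3.85, and Gadd45g (-2.47) and Mdm2 (-1.63) were lower.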
